A study of Mus musculus with 20 samples.

Results

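The 10 genes that supply sulfate to and build chondroitin sulfate, Slc26a2, Papss1, Papss2, Ugdh, Xylt1, Csgalnact1, Chsy1, Chsy3, Chst3 and Chst11, were followed in RNA-seq of ATDC5 cells, a mouse line used as a model of cartilage formation. They were picked by symbol out of 27911 genes in the table, and 9 of the 10 passed the filter on low counts. The mutant lines were Kmt2d-/-, with deletions of the catalytic SET domain on both alleles, and the controls were Kmt2d+/+ ATDC5 lines. Kmt2d encodes a histone methyltransferase. Each line was 1 clone. The 2 Kmt2d-/- clones (clone 1, labelled 10-7, and clone 2, labelled 96-9) and the 3 Kmt2d+/+ clones (clone 1, labelled 10-5, clone 2, labelled 10-7, and clone 3, labelled 10-8) were each taken at day 7 of chondrogenic culture and at day 0, before it. At day 7 both genotypes had received the same medium with insulin, transferrin, selenium, ascorbic acid and beta-glycerophosphate, and at day 0 both were undifferentiated.

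Chondroitin sulfate is a sulfated sugar chain that is attached to core proteins such as aggrecan and holds water in cartilage. Its synthesis needs sulfate taken up from the medium, the activated sulfate donor PAPS, UDP-sugars, a xylose that starts the chain on the core protein, enzymes that start and lengthen the chain, and sulfotransferases that place sulfate on it. Loss of Papss2 shortens the skeleton in brachymorphic mice, and human mutations of SLC26A2, PAPSS2, XYLT1, CSGALNACT1 and CHST3 are known from skeletal dysplasias, as background.

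The 10 libraries (5 clones at 2 days) held 35792709 to 66237183 counts each. Levels are in CPM, counts relative to the TMM-scaled library size, log2 ratios are edgeR's fitted log2 fold changes with their standard errors (SE), and a gene was called at an edgeR adjusted p under 0.05 (quasi-likelihood F test, Benjamini-Hochberg over 15467 genes). The gene total of Kmt2d, which does not separate transcripts with the deletion, was 174.8 and 113.3 CPM in Kmt2d-/- clones against 186.7, 173.3 and 207.0 CPM in Kmt2d+/+ clones at day 7 (log2 ratio -0.39 with SE 0.22, edgeR adjusted p = 0.363), and 205.2 and 148.0 CPM in Kmt2d-/- clones against 210.8, 185.4 and 194.6 CPM in Kmt2d+/+ clones at day 0. All 15 chondrocyte markers exceeded 3 counts in at least 1 library of each group, except Cnmd in Kmt2d+/+ cells at day 0. Their summed level was 27073 to 31462 CPM in Kmt2d-/- clones against 624 to 1299 CPM in Kmt2d+/+ clones at day 7. At day 0 it was 2010 to 6201 CPM in Kmt2d-/- clones against 61.7 to 430.0 CPM in Kmt2d+/+ clones. Most of the Kmt2d-/- sum at day 7 was Col2a1 alone, at 20471 and 24450 CPM. Skeletal muscle, immune and epithelial markers summed to at most 1.46 CPM in any library and endothelial ones to at most 8.62 CPM. Over all libraries, osteoblast markers summed to 8231 to 30235 CPM, most of it Col1a1 at 7810 to 29756 CPM. Hypertrophic chondrocyte markers summed to 127.3 to 1170 CPM, adipocyte markers to 19.6 to 175.7 CPM, and tendon and fibroblast markers to 39.9 to 96.0 CPM. Of these other lists, 1 gene was called between genotypes, the tendon marker Scx, at 11.6 and 11.2 CPM in Kmt2d-/- clones against 42.2, 26.3 and 33.4 CPM in Kmt2d+/+ clones at day 7 (log2 ratio -1.58 with SE 0.28, edgeR adjusted p = 0.0346). In bulk RNA, fewer cells of a type and less RNA per cell cannot be told apart.

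Papss2 and Papss1 encode the 2 PAPS synthases, which join sulfate to ATP, and Papss2 is the one known for its role in cartilage. Papss2 lies on chromosome 19 at 32595790 to 32667187 (GRCm38, plus strand) and Papss1 on chromosome 3 at 131564768 to 131643671 (plus strand). The sequences below are RefSeq promoter windows of GRCm38.p6, from 250 bases before to 50 after an annotated start, shown because Papss2 was called between the genotypes and Papss1 was not. Capitals mark the GC box GGGCGG and the Sox core ACAAT, searched on both strands, and the 2 motifs do not overlap.
Papss2, upstream start, chr19:32595465-32595764, plus strand: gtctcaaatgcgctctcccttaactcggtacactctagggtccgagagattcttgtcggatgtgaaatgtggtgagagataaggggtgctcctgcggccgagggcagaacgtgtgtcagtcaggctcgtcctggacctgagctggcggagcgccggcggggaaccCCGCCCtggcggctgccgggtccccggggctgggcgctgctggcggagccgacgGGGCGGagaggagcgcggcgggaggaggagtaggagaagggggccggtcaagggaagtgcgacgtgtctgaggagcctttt
Papss2, downstream start, chr19:32619755-32620054, plus strand: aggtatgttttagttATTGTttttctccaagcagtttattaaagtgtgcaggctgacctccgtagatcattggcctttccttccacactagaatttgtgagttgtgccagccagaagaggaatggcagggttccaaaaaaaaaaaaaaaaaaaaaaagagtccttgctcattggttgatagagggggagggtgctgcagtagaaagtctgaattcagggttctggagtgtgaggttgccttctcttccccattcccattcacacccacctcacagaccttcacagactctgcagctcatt
Papss1, upstream start, chr3:131564518-131564817, plus strand: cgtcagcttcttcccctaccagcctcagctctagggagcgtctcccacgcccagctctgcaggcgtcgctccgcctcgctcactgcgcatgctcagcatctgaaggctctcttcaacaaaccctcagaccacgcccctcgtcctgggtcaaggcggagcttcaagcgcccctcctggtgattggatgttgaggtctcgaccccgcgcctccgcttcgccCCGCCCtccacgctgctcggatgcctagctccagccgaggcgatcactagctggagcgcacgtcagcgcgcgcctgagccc
Papss1, downstream start, chr3:131565782-131566081, plus strand: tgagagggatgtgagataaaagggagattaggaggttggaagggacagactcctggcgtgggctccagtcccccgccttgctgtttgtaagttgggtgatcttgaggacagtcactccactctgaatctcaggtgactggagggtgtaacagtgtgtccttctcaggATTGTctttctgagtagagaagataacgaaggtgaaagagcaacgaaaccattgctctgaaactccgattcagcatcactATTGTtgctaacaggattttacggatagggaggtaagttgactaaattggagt
Both upstream windows had 27 CG pairs and a GC content of 66.3%, against a median of 7 CG pairs over all 32851 windows of the table. The downstream Papss2 window, 24290 bases further on, had 1 CG pair and a GC content of 44.3%, and the downstream Papss1 window had 6 CG pairs and a GC content of 47.3%. A GC box was found at 2 places in the upstream Papss2 window and at 1 place in that of Papss1, with 0 in either downstream window, and 35.7% of all windows held at least 1. The Sox core was found at 1 place in the downstream Papss2 window and at 2 places in that of Papss1, with 0 in either upstream window, and 31.0% of all windows held it. Windows were read for 6 of the 10 genes. Whether the source holds windows for the other 4 is not stated here. The deposited values were gene totals and do not separate the starts.

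Papss2 was the gene with the largest difference between genotypes among the 9 tested. At day 7 it was at 83.5 and 108.2 CPM in Kmt2d-/- clones 1 and 2, against 2.06, 1.49 and 1.24 CPM in Kmt2d+/+ clones 1, 2 and 3. The lowest Kmt2d-/- clone was far above the highest Kmt2d+/+ clone. The means were 95.9 ± 17.5 CPM (SD, n = 2) and 1.595 ± 0.418 CPM (SD, n = 3), and edgeR gave a 60.1-fold difference (log2 ratio 5.91 with SE 0.68, adjusted p = 0.00883). The call was lost without Kmt2d+/+ clone 1 (log2 fold change 6.13, edgeR adjusted p = 0.0523) and without Kmt2d+/+ clone 3 (5.75, edgeR adjusted p = 0.125), and over all 14 alternatives the log2 ratio lay between 5.71 and 6.13. The summed chondrocyte markers given above were also higher in Kmt2d-/- clones. Called were 3 of 15 at day 7 (Col2a1, Matn1 and Matn3) and Col2a1 at day 0, where 0.905% and 1.17% of all tested genes were called higher. All 15 log2 fold changes were positive on both days, with medians of 2.9 at day 7 and 1.73 at day 0. The part of these markers in the Papss2 difference was not tested.

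Undifferentiated cells already differed. At day 0 Papss2 was at 16.4 and 2.64 CPM in Kmt2d-/- clones 1 and 2, against 0.172, 0.371 and 0.232 CPM in Kmt2d+/+ clones 1, 2 and 3. The groups did not overlap, but the Kmt2d-/- clones lay far apart. edgeR gave a 36.2-fold difference (log2 ratio 5.18 with SE 0.71, adjusted p = 0.0190), a value of 3.33 on the log2 scale when Kmt2d-/- clone 1 was left out and of 5.97 when clone 2 was. The call was lost without Kmt2d+/+ clone 1 (edgeR adjusted p = 0.103), without Kmt2d+/+ clone 3 (0.170), with the day 0 libraries alone (0.101), in limma-voom (0.0557) and in limma-voom with the clone as a random effect (0.104). Both Kmt2d-/- clones at day 0, at 16.4 and 2.64 CPM, were above the 1.24 to 2.06 CPM of the Kmt2d+/+ clones at day 7, a pair of groups for which no test was set.

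Papss1 was not called on either day by edgeR. Its level at day 7 was 52.8 and 63.2 CPM in Kmt2d-/- clones, against 42.2, 34.6 and 37.8 CPM in Kmt2d+/+ clones. Every Kmt2d-/- clone was above every Kmt2d+/+ clone, but the test was not passed (log2 ratio 0.60 with SE 0.18, edgeR adjusted p = 0.121; DESeq2 adjusted p = 0.0422). The day 0 values were 23.4 and 32.9 CPM in Kmt2d-/- clones and 30.4, 27.9 and 30.01 CPM in Kmt2d+/+ clones, with overlapping groups (-0.07, SE 0.19, edgeR adjusted p = 0.881).

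The 2 synthases were also compared per length of transcript, as the share of their summed CPM per kb that came from Papss2. At day 7 Papss2 made up 55.0% and 57.0% of the pair in Kmt2d-/- clones, against 3.63%, 3.22% and 2.47% in Kmt2d+/+ clones. Papss2 was thus the more abundant of the pair in both Kmt2d-/- clones and the minor one in all 3 Kmt2d+/+ clones. The means were 56.0% ± 1.40 (SD, n = 2) and 3.11% ± 0.584 (SD, n = 3), a difference of 52.9 percentage points (two-sided exact permutation test, p = 0.2, the smallest that 2 clones against 3 allow). At day 0 the share was 35.2% and 5.84% in Kmt2d-/- clones, against 0.435%, 1.02% and 0.594% in Kmt2d+/+ clones (exact permutation p = 0.2). Summed over the pair, the level at day 7 was 41.8 and 52.3 CPM per kb in Kmt2d-/- clones, against 15.6, 12.7 and 13.8 CPM per kb in Kmt2d+/+ clones. The sum at day 0 was 12.8 and 12.4 CPM per kb in Kmt2d-/- clones, against 10.9, 10.0 and 10.7 CPM per kb in Kmt2d+/+ clones. Groups did not overlap on either day (exact permutation p = 0.2 each), although most of the day 0 sum was Papss1 in every library.

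**Figure D1:**
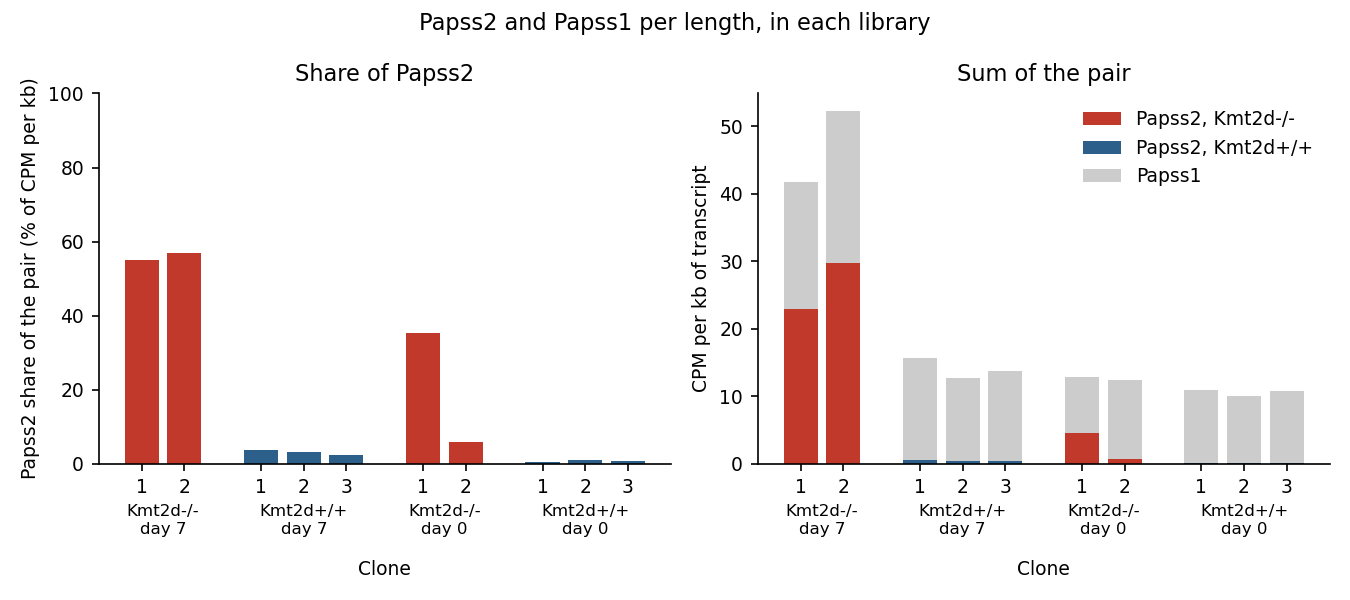
Left, share of Papss2 in the summed CPM per kb of Papss2 and Papss1 (percent, axis from 0); right, the sum itself (CPM per kb of transcript), with Papss2 in colour and Papss1 in grey. Each bar is 1 library, with clones numbered within the group. The 2 Kmt2d-/- libraries at day 7 stand at 55.0% and 57.0%, and the 6 Kmt2d+/+ libraries at 0.435% to 3.63%.

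Slc26a2 encodes the sulfate transporter of the chondrocyte membrane (chromosome 18, 61192919 to 61211612, minus strand). It was at 88.2 and 77.9 CPM in Kmt2d-/- clones at day 7, against 38.0, 34.6 and 24.7 CPM in Kmt2d+/+ clones. The Kmt2d-/- clones were both above the Kmt2d+/+ clones, and the 2.56-fold difference was called (log2 ratio 1.36 with SE 0.25, edgeR adjusted p = 0.0372). That call was lost without either Kmt2d-/- clone (edgeR adjusted p = 0.174 without clone 1 and 0.111 without clone 2), without Kmt2d+/+ clone 1 (0.0780) or clone 3 (0.179), in flow-cell run 2 alone (0.0656) and with the day 7 libraries alone (0.0757). At day 0 the transporter had 65.0 and 48.2 CPM in Kmt2d-/- clones, against 22.9, 32.0 and 20.9 CPM in Kmt2d+/+ clones. Again no clone overlapped, with a log2 fold change of 1.16 (SE 0.25, edgeR adjusted p = 0.0513; 0.0331 without Kmt2d+/+ clone 2).

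Ugdh encodes UDP-glucose dehydrogenase, which makes the UDP-glucuronate used in the repeating unit of the chain (chromosome 5, 65413221 to 65435949, minus strand). At day 7 it was at 458.3 and 269.4 CPM in Kmt2d-/- clones, against 152.1, 175.6 and 121.7 CPM in Kmt2d+/+ clones. No clone overlapped, but the test was not passed (log2 ratio 1.28 with SE 0.30, edgeR adjusted p = 0.0618). The call was made in limma-voom with the clone as a random effect (adjusted p = 0.0425) and in DESeq2 (adjusted p = 0.00273). At day 0 the values were 371.6 and 219.9 CPM in Kmt2d-/- clones and 185.4, 256.8 and 202.0 CPM in Kmt2d+/+ clones, and Kmt2d+/+ clone 2 lay above Kmt2d-/- clone 2 (0.46, SE 0.30, edgeR adjusted p = 0.428).

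Xylt1 encodes the xylosyltransferase that puts the first sugar on the core protein (chromosome 7, 117380979 to 117673580, plus strand). Kmt2d-/- clones had 355.2 and 385.9 CPM at day 7, against 222.2, 136.4 and 69.6 CPM in Kmt2d+/+ clones. The Kmt2d+/+ clones spread over a wide range, and the test was not passed (log2 ratio 1.38 with SE 0.74, edgeR adjusted p = 0.345). At day 0 Xylt1 was at 64.0 and 62.3 CPM in Kmt2d-/- clones, against 12.9, 78.5 and 13.95 CPM in Kmt2d+/+ clones. Kmt2d+/+ clone 2 alone reached above the Kmt2d-/- clones; the log2 fold change was 0.85 (SE 0.74, edgeR adjusted p = 0.568) with it and 2.23 (edgeR adjusted p = 0.0459) without it.

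Csgalnact1 encodes the transferase that adds the first N-acetylgalactosamine and so commits the linkage to chondroitin sulfate (chromosome 8, 68356781 to 68735146, minus strand). Its day 7 level was 98.3 and 65.4 CPM in Kmt2d-/- clones, against 41.4, 18.9 and 24.5 CPM in Kmt2d+/+ clones. The groups did not overlap (log2 ratio 1.53 with SE 0.36, edgeR adjusted p = 0.0630). The call was made in limma-voom (adjusted p = 0.0371), in limma-voom with the clone as a random effect and in DESeq2 (adjusted p = 0.00249). At day 0 it was at 14.7 and 7.82 CPM in Kmt2d-/- clones, against 9.59, 9.59 and 10.0 CPM in Kmt2d+/+ clones, which lay between the Kmt2d-/- clones (0.21, SE 0.37, edgeR adjusted p = 0.795).

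Chsy1 and Chsy3 encode chondroitin synthases, which lengthen the chain (Chsy1 on chromosome 7, 66109515 to 66173798, plus strand; Chsy3 on chromosome 18, 59175401 to 59535999, plus strand). Chsy1 was at 256.1 and 192.1 CPM in Kmt2d-/- clones at day 7, against 169.9, 137.5 and 141.1 CPM in Kmt2d+/+ clones. The clones did not overlap, and the test was not passed (log2 ratio 0.58 with SE 0.23, edgeR adjusted p = 0.206). At day 0 Chsy1 read 168.3 and 100.1 CPM in Kmt2d-/- clones and 147.5, 143.7 and 132.9 CPM in Kmt2d+/+ clones, which lay within the Kmt2d-/- range (-0.08, SE 0.23, edgeR adjusted p = 0.894). Chsy3 had 0 counts in every Kmt2d-/- library, against 1 count at day 7 and 3 counts at day 0 in Kmt2d+/+ clone 2 and 0 in the other Kmt2d+/+ libraries. A count of 0 allows up to 3 counts per library, which is 0.0538 to 0.0550 CPM in the Kmt2d-/- libraries at day 7 and 0.0637 to 0.0725 CPM in those at day 0, so Chsy3 was not detectable at this depth in Kmt2d-/- cells and was not tested.

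Chst3 and Chst11 encode a chondroitin 6-sulfotransferase and a chondroitin 4-sulfotransferase. Both lie on chromosome 10, Chst3 at 60181532 to 60219260 (minus strand) and Chst11 at 82985498 to 83195900 (plus strand). Chst3 had 16.1 and 17.7 CPM in Kmt2d-/- clones at day 7, against 29.9, 12.5 and 18.5 CPM in Kmt2d+/+ clones, which spanned the Kmt2d-/- values (log2 ratio -0.26 with SE 0.40, edgeR adjusted p = 0.776; the sign turns without Kmt2d+/+ clone 1, at 0.13). At day 0 it had 9.54 and 19.9 CPM in Kmt2d-/- clones and 16.2, 13.1 and 13.9 CPM in Kmt2d+/+ clones (0.03, SE 0.39, edgeR adjusted p = 0.974). Chst11 had 257.2 and 273.3 CPM in Kmt2d-/- clones at day 7, against 286.9, 71.7 and 114.6 CPM in Kmt2d+/+ clones. Kmt2d+/+ clone 1 was the highest of the 5 and the other Kmt2d+/+ clones the lowest, and the test was not passed (0.75, SE 0.46, edgeR adjusted p = 0.406). At day 0 Chst11 was at 82.7 and 97.4 CPM in Kmt2d-/- clones, against 44.1, 45.8 and 42.8 CPM in Kmt2d+/+ clones; the groups did not overlap, and the test did not pass (1.03, SE 0.46, edgeR adjusted p = 0.2501).

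Per kb of transcript, the ratio of Chst11 to Chst3 was 17.7 and 17.02 in Kmt2d-/- clones at day 7, against 10.6, 6.36 and 6.86 in Kmt2d+/+ clones. At day 0 it was 9.58 and 5.42 in Kmt2d-/- clones, against 3.01, 3.88 and 3.41 in Kmt2d+/+ clones. The Kmt2d-/- clones were above the Kmt2d+/+ clones on both days (two-sided exact permutation test, p = 0.2 each, the smallest possible). Other sulfation genes, such as Chst7 and Chst12, were left out of this ratio. Mean CPM per kb at day 7 was 4.20 in Kmt2d-/- and 2.65 in Kmt2d+/+ clones for Chst7, and 27.7 and 29.9 for Chst12.

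**Figure D2:**
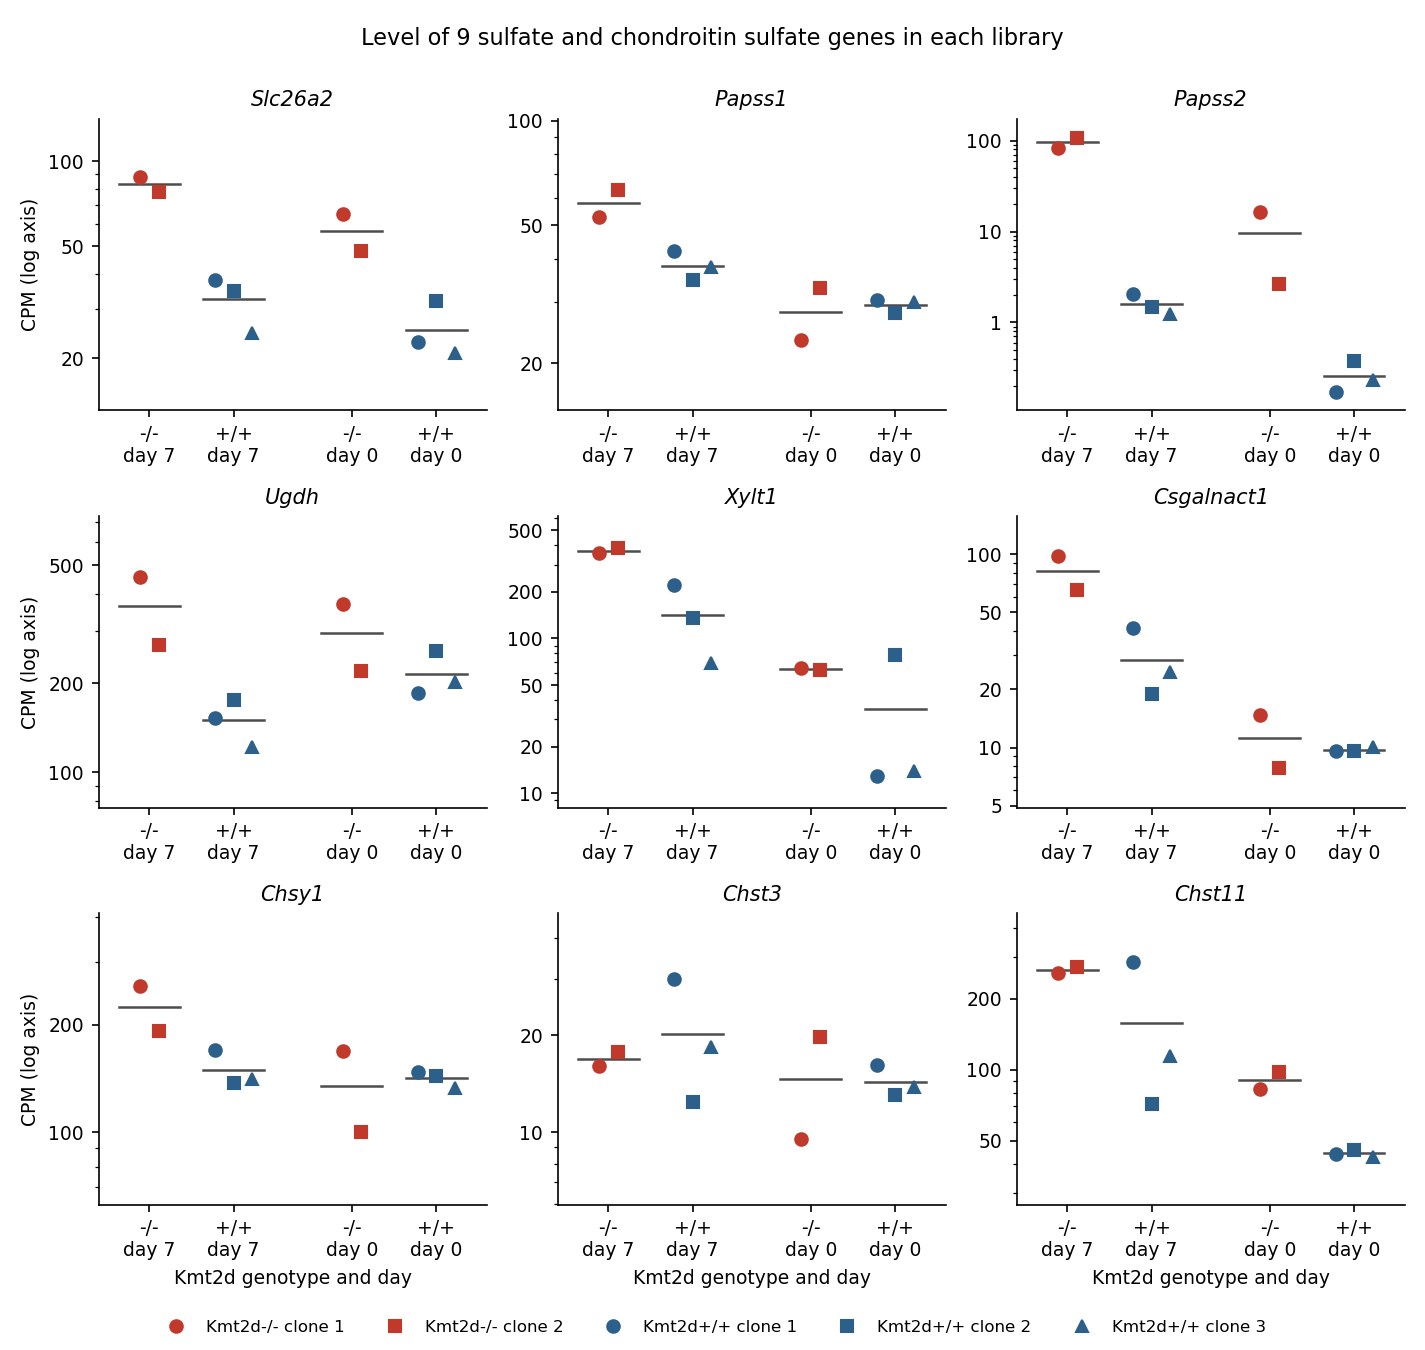
CPM (log axis) of the 9 tested genes in each of the 10 libraries, by Kmt2d genotype and day; symbols mark clones and lines the group mean. Papss2 spans 0.172 to 108.2 CPM with no overlap between genotypes at either day, whereas the genotypes overlap for Chst3 at both days.

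Set side by side, 7 of the 9 tested genes (Slc26a2, Papss1, Papss2, Ugdh, Xylt1, Csgalnact1 and Chsy1) had every Kmt2d-/- clone above every Kmt2d+/+ clone at day 7, where 17.9% of all tested genes did. At day 0 there were 3 of 9 (Slc26a2, Papss2 and Chst11), where 18.6% of all tested genes did. The edgeR test called 2 of 9 higher in Kmt2d-/- clones at day 7 (Papss2 and Slc26a2) and 0 lower. Of all tested genes 1.87% were called in either direction and 0.905% higher. At day 0 it called 1 of 9 (Papss2), against 2.15% of all genes in either direction and 1.17% higher. The median log2 fold change of the 9 was 1.28 at day 7 and 0.46 at day 0, and that of all tested genes -0.02 and 0.01. The genes were chosen with earlier results of these data known, so these shares and medians only describe them. Other tools gave other counts. At day 7 limma-voom called 3 of 9 (3.45% of all genes), limma-voom with the clone as a random effect 4 (2.86%) and DESeq2 5 (10.4%), each including Papss2 and Slc26a2. At day 0 the counts were 0 (1.72%), 0 (1.25%) and 2 (10.6%).

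Ranked per kb of transcript, Papss2 held the fifth place of the 10 genes in Kmt2d-/- clones at day 7 (26.4 ± 4.81 CPM per kb, SD, n = 2) and the ninth in Kmt2d+/+ clones (0.439 ± 0.115 CPM per kb, SD, n = 3). In Kmt2d-/- clones it came after Ugdh (142.7 CPM per kb), Chsy1 (53.7), Chst11 (48.0) and Xylt1 (41.1), with a range that overlapped that of the next gene, Csgalnact1 (20.8). Papss1 (20.6), Slc26a2 (10.6), Chst3 (2.77) and Chsy3 (0) followed. Chsy1 and Chst11 overlapped, as did Csgalnact1 and Papss1, and the other neighbours in this order did not. In Kmt2d+/+ clones at day 7 the order was Ugdh (58.7 CPM per kb), Chsy1 (35.8), Chst11 (28.5), Xylt1 (15.8), Papss1 (13.6), Csgalnact1 (7.17), Slc26a2 (4.15), Chst3 (3.32), Papss2 and Chsy3. From Chsy1 to Papss1 each overlapped its neighbour, as did Csgalnact1, Slc26a2 and Chst3, while Papss2 lay below Chst3 in every clone.
At day 0 Papss2 averaged 2.62 ± 2.68 CPM per kb in Kmt2d-/- clones (SD, n = 2), overlapping Csgalnact1 (2.86) and Chst3 (2.41), against 0.0711 ± 0.0282 CPM per kb in Kmt2d+/+ clones (SD, n = 3), below all but Chsy3.

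**Figure D3:**
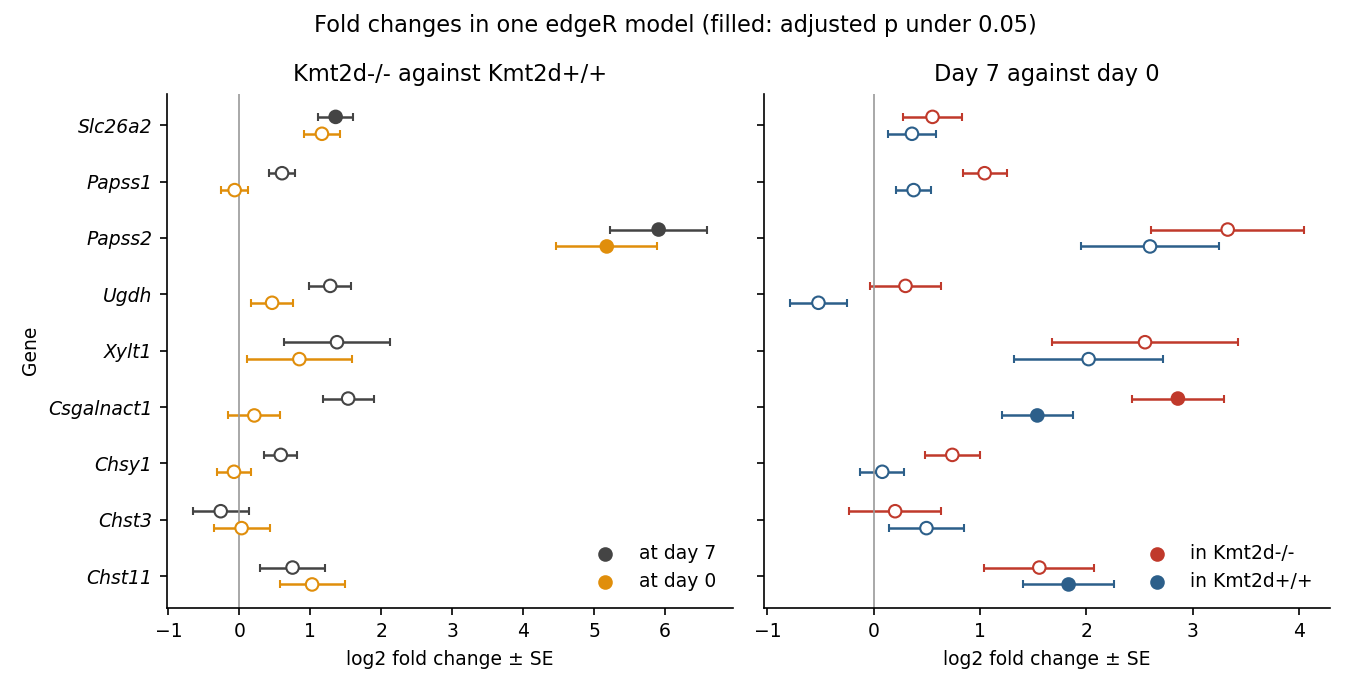
log2 fold change with its SE for 9 genes, from 1 edgeR model; left, Kmt2d-/- against Kmt2d+/+ at day 7 and day 0; right, day 7 against day 0 in each genotype. Filled points have an adjusted p under 0.05; between genotypes these are Papss2 on both days (5.91 and 5.18) and Slc26a2 at day 7 (1.36).

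The second question was how the genes moved during chondrogenic culture within each genotype. Csgalnact1 rose in both. In Kmt2d-/- clones the ratio of day 7 to day 0 was 6.69 in clone 1 and 8.37 in clone 2 (7.27-fold in edgeR, log2 ratio 2.86 with SE 0.43, adjusted p = 0.0294). In Kmt2d+/+ clones it was 4.31, 1.98 and 2.45 (2.91-fold, log2 ratio 1.54 with SE 0.34, edgeR adjusted p = 0.0392). Both Kmt2d-/- ratios were above all 3 Kmt2d+/+ ratios, which also held for Papss1, Ugdh and Chsy1. For Csgalnact1 the test of the difference gave 1.32 on the log2 scale (SE 0.52, unadjusted p = 0.0320, edgeR adjusted p = 1.00). The Kmt2d-/- call was lost without Kmt2d-/- clone 1 (edgeR adjusted p = 0.210) or clone 2 (0.144), without Kmt2d+/+ clone 3 (0.1004) and with the Kmt2d-/- libraries alone (0.118). The Kmt2d+/+ call was lost without Kmt2d+/+ clone 1 (log2 fold change 1.15, edgeR adjusted p = 0.228), clone 2 (0.0501) or clone 3 (0.276), in run 1 alone (0.0829) and in limma-voom (0.0571).

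Papss2 had a higher level at day 7 than at day 0 in 5 of 5 clones, but neither day effect passed the test in the main fit. Of the 14 alternatives, 5 called the Kmt2d-/- day effect and 7 the Kmt2d+/+ one. The ratio of Papss2 was 5.08 and 41.0 in Kmt2d-/- clones 1 and 2 (log2 ratio 3.33 with SE 0.72, edgeR adjusted p = 0.0681). In Kmt2d+/+ clones 1, 2 and 3 it was 11.97, 4.01 and 5.35 (2.60, SE 0.65, edgeR adjusted p = 0.0544; 0.0337 with the Kmt2d+/+ libraries alone). The ratios of the genotypes overlap. The difference of the 2 day effects was 0.73 (SE 0.94, edgeR adjusted p = 1.00), with 2.75 when Kmt2d-/- clone 1 was left out and -0.26 when clone 2 was.

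With a term for each clone (the replicate block), which uses the fact that each clone was taken on both days, the Kmt2d-/- day effect of Papss2 was called (log2 fold change 3.80, edgeR adjusted p = 0.0455) and the Kmt2d+/+ one was not (2.57, edgeR adjusted p = 0.0553). The block also called Papss1 (1.06, edgeR adjusted p = 0.0163) and Chsy1 (0.77, edgeR adjusted p = 0.0376) higher at day 7 in Kmt2d-/- clones, beside Csgalnact1 (2.90, edgeR adjusted p = 0.0110). In Kmt2d+/+ clones it called Xylt1 (2.38, edgeR adjusted p = 0.0449) higher and Ugdh lower (-0.52, edgeR adjusted p = 0.0343), beside Csgalnact1 (1.46, edgeR adjusted p = 0.0168) and Chst11 (1.58, edgeR adjusted p = 0.0372). This made 4 of 9 in each genotype, where the block called 5.57% of all genes in Kmt2d-/- and 18.0% in Kmt2d+/+ clones.

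Without the block, Chst11 was the other gene called. Its ratio of day 7 to day 0 was 3.11 and 2.81 in Kmt2d-/- clones (log2 ratio 1.56 with SE 0.52, edgeR adjusted p = 0.196) and 6.51, 1.56 and 2.68 in Kmt2d+/+ clones (3.56-fold, 1.83, SE 0.43, edgeR adjusted p = 0.0451). The Kmt2d+/+ call was lost in limma-voom (adjusted p = 0.0695), with the Kmt2d+/+ libraries alone (edgeR adjusted p = 0.0794), and without any clone but Kmt2d+/+ clone 2; without Kmt2d+/+ clone 1 the log2 fold change was 1.07 (edgeR adjusted p = 0.147), and without the others the adjusted p was 0.0874 to 0.276. Xylt1 had ratios of 5.55 and 6.19 in Kmt2d-/- clones (2.55, SE 0.87, edgeR adjusted p = 0.208) and of 17.2, 1.74 and 4.99 in Kmt2d+/+ clones (2.02, SE 0.70, edgeR adjusted p = 0.118). Papss1 had ratios of 2.26 and 1.92 in Kmt2d-/- clones (1.04, SE 0.21, edgeR adjusted p = 0.0524) and of 1.39, 1.24 and 1.26 in Kmt2d+/+ clones (0.38, SE 0.17, edgeR adjusted p = 0.205).

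The remaining genes were not called between the days in the fit without the block. Slc26a2 had ratios of 1.36 and 1.62 in Kmt2d-/- clones (edgeR adjusted p = 0.412) and of 1.66, 1.08 and 1.18 in Kmt2d+/+ clones (edgeR adjusted p = 0.364). Ratios of Chsy1 were 1.52 and 1.92 in Kmt2d-/- clones and 1.15, 0.957 and 1.06 in Kmt2d+/+ clones (edgeR adjusted p = 0.217 in Kmt2d-/-, or 0.0376 with the block, and 0.851 in Kmt2d+/+). Those of Chst3 were 1.68 and 0.894 in Kmt2d-/- clones and 1.85, 0.955 and 1.33 in Kmt2d+/+ clones (edgeR adjusted p = 0.891 in Kmt2d-/- and 0.424 in Kmt2d+/+). Ugdh was the gene whose clones moved in opposite directions, with ratios of 1.23 and 1.23 in Kmt2d-/- clones against 0.820, 0.684 and 0.602 in Kmt2d+/+ clones (edgeR adjusted p = 0.760 in Kmt2d-/- and 0.275, or 0.0343 with the block, in Kmt2d+/+). The share of all tested genes with this pattern is not given here.

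In all, the level was higher at day 7 in every Kmt2d-/- clone for 8 of 9 genes (all but Chst3), where 34.2% of all tested genes did so. It was higher in every Kmt2d+/+ clone for 6 of 9, where 31.0% of all genes did so. edgeR called 1 of 9 higher in Kmt2d-/- clones (1.27% of all genes in either direction, 0.672% higher) and 2 of 9 in Kmt2d+/+ clones (5.08% in either direction, 3.05% higher). limma-voom called 2 of 9 (1.16% of all genes) in Kmt2d-/- and 0 (5.08%) in Kmt2d+/+ clones, and DESeq2 called 5 (6.46%) in Kmt2d-/- and 4 (14.7%) in Kmt2d+/+ clones. For the difference of the 2 day effects edgeR called 0 of 9, and 0% of all genes. At an unadjusted p under 0.05 there were 2 of 9 (Csgalnact1 and Papss1) and 568 of the 15467 genes, and DESeq2 and limma-voom also called 0 of 9, where DESeq2 called 27 of all genes (0.175%). The 2 genotype comparisons and the 2 day effects share libraries and are not independent of each other.

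The rest of the pathway was read from 4 lists. Of 17 other linkage, chain and sulfation genes, 0 were called between the genotypes at day 7, and the median log2 fold change was -0.107. The list moved both ways, with 8 of the 17 log2 fold changes positive. At an unadjusted edgeR p under 0.05 there were 8 of the 17, and 3079 of the 15467 tested genes. Chpf, a partner of the chondroitin synthases, was the most abundant of this list by mean CPM over all 10 libraries. At day 7 Chpf was at 146.5 and 143.8 CPM in Kmt2d-/- clones against 146.3, 154.2 and 103.9 CPM in Kmt2d+/+ clones. At day 0 the median was -0.157 and Ust, the uronyl 2-sulfotransferase, was called lower. Ust had 16.4 and 18.9 CPM in Kmt2d-/- clones against 40.1, 35.6 and 34.7 CPM in Kmt2d+/+ clones (log2 ratio -1.06 with SE 0.21, edgeR adjusted p = 0.0433), and its call was kept only without Kmt2d+/+ clone 2 among the clones left out (the others gave 0.117 to 0.199). It was also lost in run 1 alone (0.0654), with the day 0 libraries alone (0.107) and in limma-voom (0.0533). With the clone as a random effect, limma-voom gave an adjusted p of 0.0829.

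Of 15 other genes for precursors and transport, Gfpt2 was called higher in Kmt2d-/- clones on both days. It encodes an enzyme of the first step towards UDP-N-acetylglucosamine, from which UDP-N-acetylgalactosamine is made. At day 7 Gfpt2 was at 26.6 and 31.2 CPM in Kmt2d-/- clones against 0.691, 1.34 and 0.177 CPM in Kmt2d+/+ clones, far apart (log2 ratio 5.29 with SE 0.88, edgeR adjusted p = 0.0316). Day 0 values were 6.47 and 2.91 CPM in Kmt2d-/- clones against 0.200, 0.464 and 0.0632 CPM in Kmt2d+/+ clones (4.26, SE 0.88, edgeR adjusted p = 0.0469). Without any 1 clone but Kmt2d+/+ clone 2 neither call held, with adjusted p of 0.0793 to 0.125 at day 7 and 0.131 to 0.177 at day 0. With the libraries of 1 day alone the adjusted p was 0.0646 at day 7 and 0.111 at day 0. The day 0 call was also lost in run 1 alone (0.0607), in limma-voom (0.0535) and in limma-voom with the clone as a random effect (0.0586). Without that clone the log2 fold changes were 6.07 and 5.19, and without Kmt2d-/- clone 1 the day 0 value was 3.58. The list's median was 0.241 at day 7 and 0.087 at day 0.

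For heparan sulfate, the other sulfated chain that starts from the same linkage, 0 of 16 tested genes were called between genotypes on either day, with medians of 0.138 at day 7 and -0.305 at day 0. Ext1, a heparan sulfate polymerase subunit, was the most abundant of them by mean CPM over all 10 libraries, though not at day 7. It had 101.9 and 57.4 CPM in Kmt2d-/- clones against 103.7, 184.4 and 126.7 CPM in Kmt2d+/+ clones at day 7. Its day 0 values were 376.9 and 146.6 CPM in Kmt2d-/- clones against 382.4, 431.0 and 298.4 CPM in Kmt2d+/+ clones. Neither difference was called (log2 ratios of -0.80 and -0.50, edgeR adjusted p = 0.344 and 0.551). Of 10 tested genes for breakdown of these chains, 0 were called on either day (medians 0.265 and 0.239). Gusb, the beta-glucuronidase, had 491.5 and 258.4 CPM in Kmt2d-/- clones against 253.7, 241.2 and 204.7 CPM in Kmt2d+/+ clones at day 7, and 268.9 and 163.6 CPM in Kmt2d-/- clones against 171.4, 227.3 and 194.3 CPM in Kmt2d+/+ clones at day 0 (edgeR adjusted p = 0.239 at day 7 and 0.848 at day 0).

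**Figure D4:**
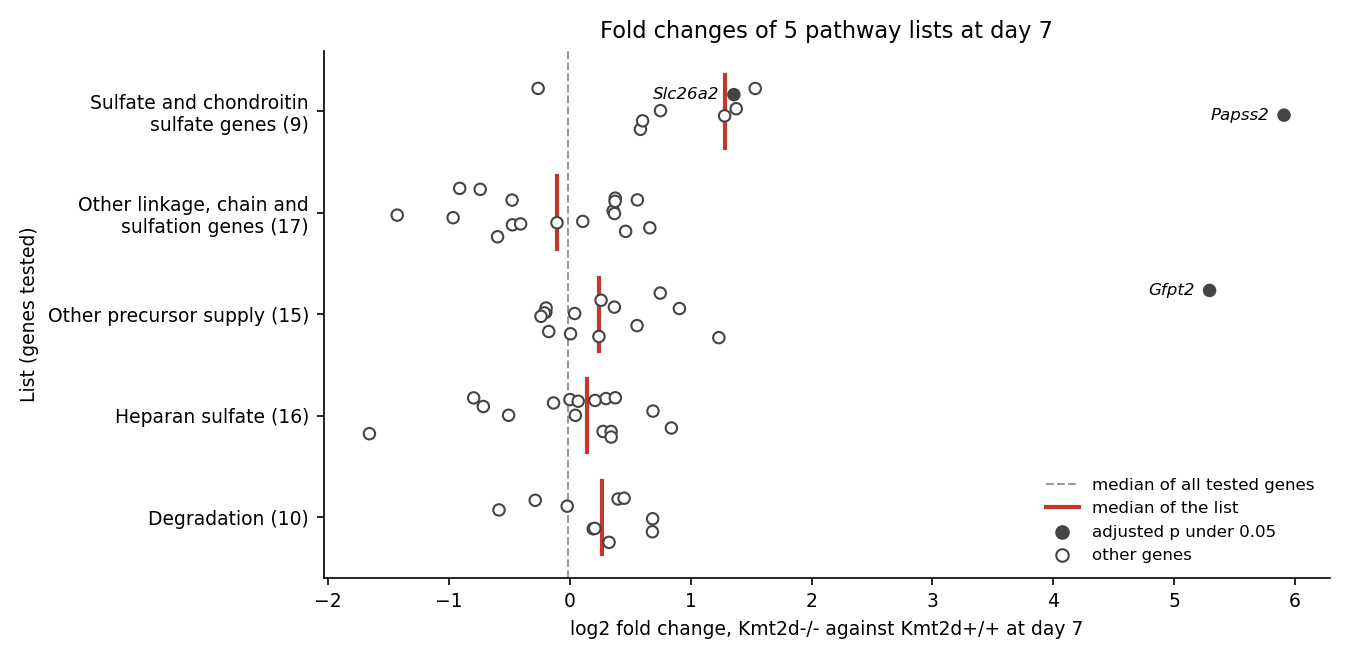
log2 fold change between Kmt2d-/- and Kmt2d+/+ clones at day 7 for the 9 tested sulfate and chondroitin sulfate genes and for 4 wider lists; each point is a gene, red bars are list medians and the dashed line is the median of all tested genes. The median of the 9 is 1.28, those of the other lists lie between -0.107 and 0.265, and the filled points are Papss2, Slc26a2 and Gfpt2.

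Between the days, Chst13, a chondroitin 4-sulfotransferase, was called higher at day 7 in both genotypes. It had 0.731 and 1.12 CPM at day 7 and 0 and 1 count at day 0 in Kmt2d-/- clones, a ratio of 79.0 of summed counts per library size (exact binomial 95% interval 13.9 to 3152; edgeR adjusted p = 0.0207). Kmt2d+/+ clones had 3.36, 1.59 and 2.54 CPM at day 7 and 1 count each at day 0, a ratio of 103.1 (interval 35.1 to 501.6; edgeR adjusted p = 0.00741). The Kmt2d-/- call was lost without either Kmt2d-/- clone or without Kmt2d+/+ clone 3 (edgeR adjusted p = 0.0901 to 0.206), with the Kmt2d-/- libraries alone (0.140) and in run 2 (0.0650), and the Kmt2d+/+ call without Kmt2d+/+ clone 1 (0.0662) or clone 3 (0.186). These intervals cover counting error only.

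Hs3st3a1, a heparan sulfate 3-sulfotransferase, fell in Kmt2d+/+ clones, at 2.14, 2.58 and 1.30 CPM at day 7 against 27.3, 9.49 and 13.97 CPM at day 0 (8.43-fold lower, log2 ratio -3.08 with SE 0.55, edgeR adjusted p = 0.0245; 0.160 without Kmt2d+/+ clone 1 and 0.240 without clone 3). In Kmt2d-/- clones it had 0.827 and 0.440 CPM at day 7 against 8.14 and 3.07 CPM at day 0 (-3.14, SE 0.69, edgeR adjusted p = 0.0718). Day effect medians in Kmt2d-/- clones were 0.156 for the chain list, 0.119 for precursors, -0.0844 for heparan sulfate and 0.343 for breakdown, and in Kmt2d+/+ clones they were 0.0386, 0.0503, -0.0393 and 0.318. For the difference of the day effects 0 genes of the 4 lists were called, with values of 0.22 for Chpf, -0.11 for Bpnt2 (Impad1 in the annotation, the most abundant precursor gene), -0.29 for Ext1 and 0.56 for Gusb. Within the genotypes, Ext1 gave a day effect of -1.72 in Kmt2d-/- clones (SE 0.47, edgeR adjusted p = 0.125) and -1.42 in Kmt2d+/+ clones (SE 0.38, edgeR adjusted p = 0.0636), and Gusb one of 0.79 in Kmt2d-/- clones (SE 0.33, edgeR adjusted p = 0.305) and 0.24 in Kmt2d+/+ clones (SE 0.27, edgeR adjusted p = 0.629).

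By likeness of pattern, measured as Pearson's r of log2 CPM over the 10 libraries among 11023 genes, the genes closest to Papss2 were Igsf8 (0.978), Col2a1 (0.973), Atp5mpl (0.970), Rab14 (0.969) and Dnajc10 (0.968). Col2a1 encodes type II collagen, the main collagen of cartilage, and had 20471 and 24450 CPM in Kmt2d-/- clones against 332.2, 125.6 and 252.5 CPM in Kmt2d+/+ clones at day 7. Rab14 ranged only between 137.4 and 189.5 CPM over all libraries, so a high r here does not mean a large difference. Among the other pathway genes r with Papss2 was 0.952 for Slc26a2, 0.790 for Xylt1, 0.782 for Chst11, 0.777 for Csgalnact1, 0.680 for Chsy1, 0.645 for Ugdh, 0.643 for Papss1 and 0.00 for Chst3. The 10 libraries share clones and 2 group splits, and these values describe them without a test.

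Genes that neighbour the 10 on the chromosome were read as well, a step chosen after earlier results were seen. Within 5 Mb of Papss2, 61 other tested genes had a median log2 fold change between genotypes of 0.17 at day 7 and 0.38 at day 0, with 0 and 2 called higher. Around Slc26a2, 65 genes had medians of -0.17 and -0.18, with 0 called. The medians around the other 8 genes lay between -0.33 and 0.21 over both days. At day 7 the neighbours called there were 2 lower of 34 tested around Chsy1, 1 higher and 1 lower of 69 around Chst3 and 1 higher of 54 around Chsy3. The windows of Chsy3 and Slc26a2, both on chromosome 18, share genes. At day 0 the neighbours called were 2 lower of 34 around Chsy1, 1 lower of 69 around Chst3, 1 higher of 30 around Ugdh and 1 higher of 177 around Chst11. The shares called of all tested genes were the 1.87% at day 7 and 2.15% at day 0 given above.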

How the data were processed

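Per the labels, polyadenylated RNA of 10 libraries was sequenced, each library on 2 flow cells. The deposited values were estimated counts per gene, not normalized (0.351% of the values above 0 were whole to within 0.001). The submitters' processing notes name Salmon, edgeR, limma, DESeq2 and GRCm38, and how transcripts were summed to genes is not given in the sources used here. All 20 columns were matched to samples. Runs of a library (r = 0.9964 to 0.9981 across genes) were summed and rounded. Symbols and coordinates came from GENCODE vM21, and levels per kb use the longest protein-coding transcript. Whether counting used strand is not given in the sources used here.

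edgeR 4.0.16 (R 4.3.3; filterByExpr, TMM, quasi-likelihood F test) was fitted to 4 group means over all libraries, with 6 residual degrees of freedom. Alternatives were DESeq2 1.42.0, DESeq2's size factors, limma-voom (limma 3.58.1) with and without the clone as a random effect, filters on low values, single runs, the compared groups alone, a clone block, and leaving out a clone. Same-clone libraries deviated together (r = 0.363 to 0.571 between days). With 2 Kmt2d-/- clones the deviations from the group mean mirror each other, so both give r = 0.463. Each clone is 1 line harvested on both days, and the reason for the shared deviation was not tested.

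The 10 genes, the lists and the tests were chosen with earlier results of these data known. Besides the 10, the text names every called gene of the 4 wider lists, or else a list's most abundant gene. Abundance here is the mean CPM over all 10 libraries. The 5 genes most like Papss2 and, beside the ratio of Chst11 to Chst3, Chst7 and Chst12 are named as well. A result of the wider lists that this rule would name is not reported here. Promoter sequences are from RefSeq (GRCm38.p6).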

Additional observations from a re-analysis of the deposited data

Results flagged for a closer look

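Ugdh, the UDP-glucose dehydrogenase gene, had a higher level at day 7 than at day 0 in both Kmt2d-/- clones (ratios of 1.23 and 1.23) and a lower one in all 3 Kmt2d+/+ clones (0.820, 0.684 and 0.602), and was listed because the clones of the 2 genotypes moved in opposite directions. How many of all tested genes moved in this way is not given here. The difference of the 2 day effects was 0.82 on the log2 scale (SE 0.43, unadjusted p = 0.0879, edgeR adjusted p = 1.00). With a term for each clone it was 0.82 (SE 0.19, edgeR adjusted p = 0.414), so it did not pass in either fit.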

How the results depend on the processing

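Over 621 recomputed values of single genes, 544 kept their direction and their side of the threshold, 28 lost a call, 33 gained one and 16 changed sign. Of the 9 tested genes, edgeR called 2 between genotypes at day 7. The count was 1 in run 2 alone and with only the groups compared, 0 to 2 with a clone left out, 4 in limma-voom with the clone as a random effect and 5 in DESeq2. At day 0 it called 1, against 2 with a minimum of 5 CPM and in DESeq2, 0 with only the groups compared and in limma-voom with or without the random effect, and 0 to 3 with a clone left out. For day 7 against day 0 in Kmt2d-/- clones it called 1, against 2 without a filter, with a minimum of 5 CPM, in each run alone and in limma-voom, 0 with only the groups compared, 0 to 1 with a clone left out, 4 with the replicate block and 5 in DESeq2. In Kmt2d+/+ clones it called 2, against 0 to 2 with a clone left out, 0 in limma-voom, and 4 with the replicate block and in DESeq2. For the difference of the day effects the count was 0 in each of these settings.

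The values that changed sign were not called. With a clone left out, Chst3 lay between -0.52 and 0.13 at day 7 and between -0.59 and 0.46 at day 0, Papss1 at day 0 between -0.33 and 0.16, Csgalnact1 at day 0 between -0.32 and 0.60, Chsy1 at day 0 between -0.50 and 0.26, and the Kmt2d-/- day effect of Chst3 between -0.17 and 0.75 (log2). The difference of the day effects lay between -0.26 and 2.75 for Papss2, -0.89 and 1.40 for Xylt1, -0.66 and 0.25 for Chst3 and -0.65 and 0.49 for Chst11. Csgalnact1 at day 0 was -0.061 in run 1 alone, and Chst3 at day 0 was -0.042 in limma-voom and -0.047 with the random effect. Leaving out a clone leaves a genotype with 1 or 2 clones, and the lone one is then assumed to vary like the rest; why these values moved was not tested.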
